A study of Mus musculus with 2 samples.

Results

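Complement genes were followed across the cells of silica-treated mouse lung, in 2 single-cell libraries. The 9 genes, out of 24417 in the tables, are C1qa, C1qb, C1qc, C3, C4b, Cfb, Serping1, C3ar1 and C5ar1. They were taken by name, and all 9 were found in both tables. Silica, crystalline dust whose inhalation leads to scarring, had been given into the trachea at 400 mg/kg, and lungs were collected on days 3, 7 and 21. The mutant genotype was CCR2-/-, mice without the receptor that monocytes use to leave the bone marrow, with 8 hashtagged cell suspensions in its library. The comparison genotype was WT, with 9 suspensions. Both genotypes were of the C57BL/6 strain and both had received silica, so no untreated lung was measured. Age, sex and the extent of the deletion are not given in the sources used here, and neither is the number of mice behind a suspension. Each genotype was a library of its own (n = 1 library each), so genotype and cartridge cannot be told apart. A hashtag is an antibody with a DNA barcode that marks the cells of a suspension before pooling. The suspensions are called tags here and carry the number given in the tables. No source used here says which tag belongs to which day or animal.

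Complement is a cascade of plasma and tissue proteins that marks particles and dying cells for uptake. C1q, built from the products of C1qa, C1qb and C1qc, recognises antibody, dying cells and other surfaces and starts the classical pathway, which next cleaves C4 and C2. C3 is the central protein that every pathway cleaves, and its fragments coat surfaces or act as signals. Factor B, from Cfb, is the protease of the alternative pathway, which amplifies C3 cleavage. C1 inhibitor, from Serping1, blocks the proteases C1r and C1s. C3ar1 and C5ar1 encode the receptors for C3a and C5a, the small fragments that attract and activate myeloid cells. The liver makes most plasma complement, and C1q is known as a product of tissue macrophages.

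After filtering, 14882 CCR2-/- cells and 16857 WT cells remained, with 54043860 to 83608505 reads per CCR2-/- tag and 60631996 to 91786583 per WT tag. The median number of genes detected per cell lay between 845.5 and 1003.5 over CCR2-/- tags and between 1018 and 1453 over WT tags, and the part of this gap in the results was not tested. A total of 272 cell numbers occurred in both libraries, and 19 of these carried the same tag number. Ccr2 over all cells ranged from 1.45 to 4.39 CPM, reads scaled to the usual fixed total, in CCR2-/- tags and from 53.8 to 100.8 CPM in WT tags. The deposited counts behave as reads and not as molecules, so intervals and floors cover counting error only. Levels are CPM of all reads in a class within a tag, given as mean ± SD over tags. Cell classes were named from marker lists that hold no complement gene, and the complement genes were left out of the clustering. Names such as macrophage-like state likeness to a type. Genotypes were compared by edgeR on reads summed per tag, with p adjusted over all genes tested in a class and called under 0.05. These p-values measure the spread between tagged suspensions, which may be technical.

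The 9 genes lie on 5 chromosomes, all on the minus strand (GRCm38, GENCODE annotation). The C1q chains are neighbours on chromosome 4, C1qb at 136880129 to 136886187, C1qc at 136889804 to 136893065 and C1qa at 136895917 to 136898803. C3 lies on chromosome 17 at 57203970 to 57228136. C4b (34728380 to 34743882), its near-identical copy C4a (34809092 to 34823464) and Cfb (34856374 to 34862518) lie closer together on the same chromosome. Serping1 is on chromosome 2 at 84765387 to 84775444, C3ar1 on chromosome 6 at 122847138 to 122856161 and C5ar1 on chromosome 7 at 16246743 to 16259540. Cfb overlaps the gene model Gm20547 on the same strand, and C4b shares most of its sequence with C4a. Reads of these pairs may have been split or lost, so levels of Cfb and C4b are uncertain to that degree.

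Promoter sequence was available from RefSeq (GRCm38.p6) for 5 of the 9 genes. The 250 bases before the start site are shown for a pair of C1q chains, which shared their pattern over classes, and for C3, the gene of the fibroblast pattern. Start sites here are those of RefSeq, which match the GENCODE gene ends given above for C3 and differ for the other genes. For C1qc, C3ar1 and C5ar1 the GENCODE gene reaches farther upstream, so part of the window lies inside it. Each runs 5′ to 3′ on the minus strand, and capitals mark a match to a motif searched on both strands.
C1qb, chr4:136886201-136886450: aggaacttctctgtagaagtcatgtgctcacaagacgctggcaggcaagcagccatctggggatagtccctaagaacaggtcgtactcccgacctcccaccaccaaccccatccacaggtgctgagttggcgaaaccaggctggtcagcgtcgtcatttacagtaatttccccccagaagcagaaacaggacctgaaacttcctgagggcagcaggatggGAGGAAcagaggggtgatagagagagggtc
C1qc, chr4:136892915-136893164: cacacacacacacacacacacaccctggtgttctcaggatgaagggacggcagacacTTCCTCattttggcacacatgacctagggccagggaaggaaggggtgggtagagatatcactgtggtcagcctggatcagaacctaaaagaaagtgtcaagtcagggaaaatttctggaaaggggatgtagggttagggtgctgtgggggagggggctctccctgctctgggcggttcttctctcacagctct
C3, chr17:57228137-57228386: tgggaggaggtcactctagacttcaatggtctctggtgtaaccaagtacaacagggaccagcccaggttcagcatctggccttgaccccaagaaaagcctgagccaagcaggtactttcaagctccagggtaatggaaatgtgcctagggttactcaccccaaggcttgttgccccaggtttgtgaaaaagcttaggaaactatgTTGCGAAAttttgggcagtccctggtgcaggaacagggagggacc
In C1qb the capitals are GAGGAA, the core bound by PU.1, a factor of myeloid cells, from 30 to 25 bases before the start. In C1qc they are TTCCTC, the same core on the other strand, from 193 to 188 bases before the RefSeq start and outside the GENCODE gene. In C3 they are TTGCGAAA, a match to the C/EBP-type motif TTGCNNAA, from 45 to 38 bases before the start. Of 32851 RefSeq promoters, 23.3% hold GAGGAA on either strand and 9.56% hold TTGCNNAA. The interferon-stimulated response element, the STAT-type motif TTCNNNGAA and an NF-kB-type motif were also searched and stand in 2.98%, 7.02% and 0.356% of promoters. None of the 5 motifs was found in the windows of C3ar1 and C5ar1. A match is a stretch of letters and not a shown binding site.

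The 9 genes divided between cell classes. C1qa, C1qb, C1qc and C3ar1 were read mainly in macrophage-like classes, C3, C4b, Cfb and Serping1 mainly in fibroblast-like classes, and C5ar1 in neutrophil-like cells and several myeloid classes. Over the 25 classes with enough tags in both genotypes, the C1q chains followed each other with a Pearson r of 0.983 to 0.987, and C1qa against C3 had r = -0.01. These correlations describe classes of the same libraries and carry no test.

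**Figure D1:**
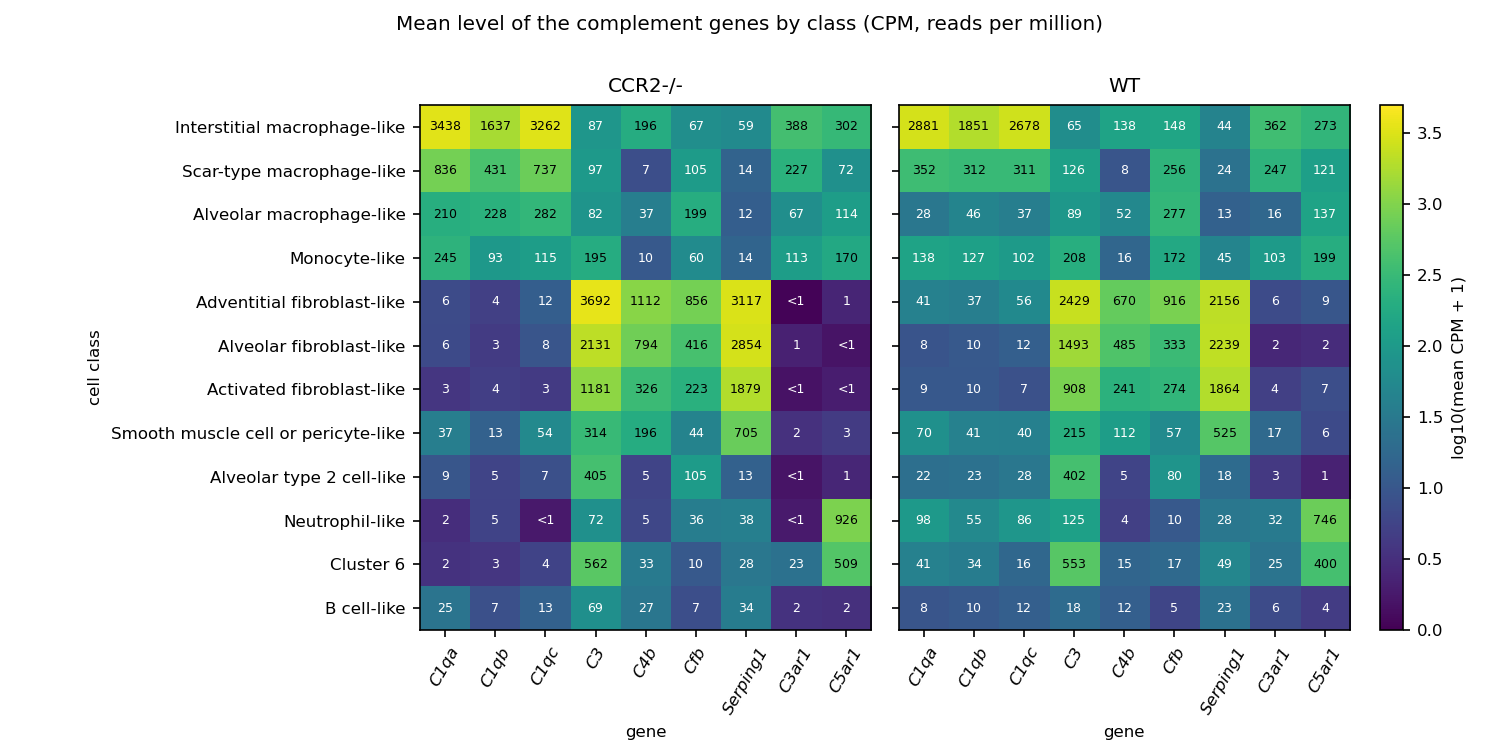
Mean CPM of the 9 complement genes (columns) in 12 cell classes (rows), with CCR2-/- on the left and WT on the right; colour gives log10(mean CPM + 1) and the number in each square the mean over tags. In both genotypes the C1q columns peak in interstitial macrophage-like cells, at 3438 CPM in CCR2-/- and 2881 CPM in WT for C1qa, and the C3 column peaks in adventitial fibroblast-like cells, at 3692 CPM in CCR2-/- and 2429 CPM in WT.

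Interstitial macrophage-like cells, the macrophages of the lung outside the airspaces (247 CCR2-/- cells, 365 WT cells), held the highest C1q levels. C1qa, the A chain, ranged over CCR2-/- tags from 2994 to 3972 CPM with a median of 3508 CPM, and over WT tags from 1890 to 3952 CPM with a median of 2628 CPM. The ranges overlapped widely, and the highest tags of both genotypes were almost level. C1qb, the B chain, averaged 1637 ± 295 CPM in CCR2-/- tags and 1851 ± 369 CPM in WT tags, and C1qc, the C chain, averaged 3262 ± 449 and 2678 ± 538 CPM in the same order. For each chain and in both genotypes, every tag of this class lay above every tag of the class ranked next. By edgeR none of the 9 genes tested in this class was called between genotypes, against 0.222% of 8998 genes tested, and 1 had an unadjusted p under 0.05. The log2 changes of CCR2-/- over WT were 0.22 for C1qa (SE 0.13, adjusted p = 0.926), -0.22 for C1qb (SE 0.14, adjusted p = 0.954) and 0.25 for C1qc (SE 0.13, adjusted p = 0.873).

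At 5000 reads per cell, C1qa was read in 93.1% of CCR2-/- interstitial macrophage-like cells (exact binomial 95% interval 89.2 to 95.9%) and in 83.0% of WT ones (78.8 to 86.7%). These intervals treat the pooled cells of all tags as separate draws. They leave out the spread between tags, so they are no comparison of genotypes. All 3 chains were read in 84.6% of these cells in CCR2-/- and 78.1% in WT. In B cell-like cells, which should lack C1q, C1qa was read in 1.42% of CCR2-/- cells and 2.17% of WT cells, at median depths of 11510 and 12773 reads against 55426 and 57826 in the macrophages. Without thinning the shares were 94.7% and 85.2% in the macrophages.

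Scar-type macrophage-like cells, the Spp1, Gpnmb and Mmp12 macrophages of injured lung, ranked after the interstitial class. C1qa averaged 836 ± 585 CPM in the 6 CCR2-/- tags with enough cells and 352 ± 184 CPM in the 9 WT tags. CCR2-/- tag 5, with 1912 CPM, stood above the other CCR2-/- tags, which lay between 172 and 925 CPM. C1qc averaged 737 ± 548 CPM in CCR2-/- and 311 ± 136 CPM in WT. By edgeR none of the 9 genes was called here, against 0.337% of 9488 genes tested, and 3 had an unadjusted p under 0.05. The log2 change was 1.28 for C1qa (SE 0.41, adjusted p = 0.290) and 1.28 for C1qc (SE 0.36, adjusted p = 0.160), and that of C1qc was called by DESeq2 (1.37, adjusted p = 0.0197). With the complement genes kept among the clustering genes the changes were 0.35 for C1qa (adjusted p = 0.961) and 0.22 for C1qc (adjusted p = 0.978). The share of cells with a C1qa read hardly differed, 19.6% in CCR2-/- and 17.2% in WT at 5000 reads. The class was small in CCR2-/-, with 168 cells against 1082 in WT, and its own marker list summed to 25800 to 34720 CPM in CCR2-/- tags and 10050 to 21140 CPM in WT tags, with Spp1 and Mmp12 called. The part of these marker levels in the C1q values was not tested.

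In monocyte-like cells, which had both classical and nonclassical markers, C1q reads came from few cells. C1qa ranged from 0 to 1606 CPM over CCR2-/- tags with a median of 2.30 CPM, and from 2.82 to 277 CPM over WT tags with a median of 109 CPM. CCR2-/- tags 1 and 3 held almost all of the CCR2-/- reads. By edgeR none of the 9 genes was called, against 2.87% of 8247 genes tested, and 2 had an unadjusted p under 0.05. The median log2 change was -0.35 over the 9 genes and -0.15 over all genes tested.

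Alveolar macrophage-like cells, the macrophages of the airspaces, were the class in which C1q chains were called between genotypes. C1qa ranged from 28.9 to 486 CPM over CCR2-/- tags with a median of 156 CPM, and from 1.32 to 66.0 CPM over WT tags with a median of 25.5 CPM. CCR2-/- tags 4, 5 and 6 were the highest, at 367, 340 and 486 CPM, and only tags 2 and 7, at 63.4 and 28.9 CPM, overlapped the WT range. By edgeR, C1qa was 7.46-fold higher (log2 change 2.90, SE 0.60, adjusted p = 0.0286) and C1qc was 7.50-fold higher (log2 change 2.91, SE 0.58, adjusted p = 0.0202). These 2 of 9 members compare with 0.116% of 11249 genes called higher. C1qb went the same way without passing (log2 change 2.29, SE 0.57, adjusted p = 0.0927). The means were 210 ± 167 CPM in CCR2-/- for C1qa, 228 ± 180 for C1qb and 282 ± 220 for C1qc, against WT means of 28.3, 46.4 and 37.3 CPM.

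In CCR2-/- most of these reads sat in a part of the class. When the alveolar macrophage-like cells were clustered again without the complement genes, sub-cluster 6, led by Ccl12, Mfge8, Arg1, Ccl7, Tmem37 and Adam8, held 110 of 719 CCR2-/- cells (15.3%) and 12 of 855 WT cells (1.404%). The leading genes of sub-cluster 6 also included Spp1 and Ccl2. Arg1 and Spp1 stand on the scar-type marker list, and Ccl12 and Ccl7 were also leading genes of the interstitial macrophage-like cluster. Sub-cluster 6 carried 74.9% of the C1qa reads of the class in CCR2-/- and 34.97% in WT. Its median depth was 162954 reads per cell in CCR2-/- and 242064 in WT, against 92671 and 81319 in the whole class, and the part of depth was not tested. The sub-cluster had 26, 31 and 34 cells in CCR2-/- tags 4, 5 and 6, and between 1 and 7 cells in the other CCR2-/- tags. Without sub-cluster 6 the log2 change was 2.08 for C1qa (adjusted p = 0.116) and 2.16 for C1qc (adjusted p = 0.112), so neither was called. Sub-cluster 6 was picked as the one with most C1q reads, so this fit is no test of where the difference lies. In the other sub-clusters C1qa was also higher in CCR2-/-, such as 118 against 29.7 CPM in sub-cluster 2. The exceptions were sub-clusters 3 (1.21 against 4.92 CPM) and 4 (96.2 against 211 CPM). In sub-cluster 5 C1qa was almost level (31.8 against 28.2 CPM) and C1qb was lower (37.6 against 72.3 CPM). Outside sub-cluster 6, all 3 chains were higher in sub-clusters 1, 2, 7 and 8. In sub-cluster 0 C1qb (0.147 against 7.618 CPM) and C1qc (0.884 against 5.475 CPM) were lower. Sub-clusters 7 to 9 had 10 to 40 cells per genotype and mean doublet scores of 0.1044 to 0.128. With the complement genes kept among the clustering genes, C1qa (2.94, adjusted p = 0.0554) and C1qc (2.92, adjusted p = 0.0578) also missed the threshold. The call of C1qa was lost when any of 6 tags was left out (CCR2-/- tags 4, 5 and 6 and WT tags 1, 6 and 7, adjusted p up to 0.0730), and that of C1qc without CCR2-/- tag 4 (adjusted p = 0.0583).

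The marker lists of the neighbouring macrophage types were measured in the same cells. The 14 interstitial macrophage markers summed to 944 to 1531 CPM in CCR2-/- tags and 841 to 1529 CPM in WT tags, and none of the 11 tested was called by edgeR, 8 of them lying above 0. The 10 scar-type markers summed to 11680 to 39470 CPM in CCR2-/- and 8461 to 23260 CPM in WT, with 9 of 10 log2 changes above 0 and none called. No marker of either list was at 0, and their part in the C1q difference was not tested. C3ar1 had a log2 change of 2.07 in this class (SE 0.59, adjusted p = 0.174).

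**Figure D2:**
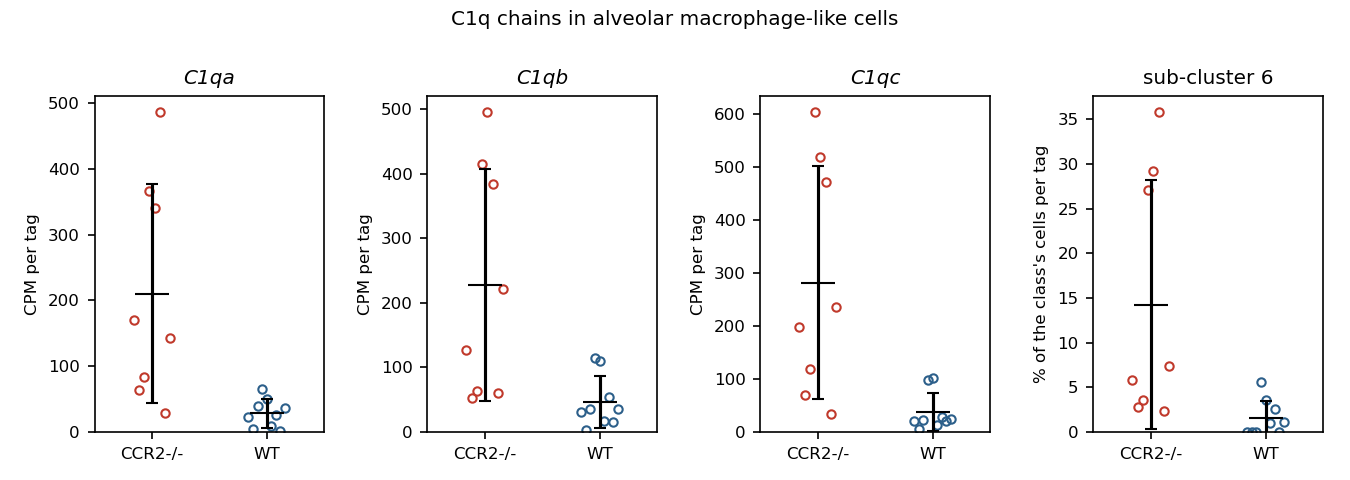
C1qa, C1qb and C1qc in alveolar macrophage-like cells, in CPM by tag, and in the last panel the percent of the class's cells in sub-cluster 6, with CCR2-/- left of WT; points are tags, bars mean and SD. The CCR2-/- tags of C1qa reach from 28.9 to 486 CPM and the WT tags from 1.32 to 66.0 CPM, with CCR2-/- tags 4, 5 and 6 at the top.

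C1q needs all 3 chains, so their co-occurrence in a cell was counted at 5000 reads. In alveolar macrophage-like cells any chain was read in 23.7% of CCR2-/- cells and 10.2% of WT cells, and all 3 in 11.2% and 1.17%. In scar-type macrophage-like cells all 3 were read in 14.3% of CCR2-/- cells and 12.8% of WT cells. The balance between chains also varied. C1qb had 0.488 reads per C1qa read in CCR2-/- interstitial macrophage-like cells, with tags between 0.392 and 0.538, and 0.644 in WT ones, with tags between 0.543 and 0.711, so the tags of the genotypes did not overlap. This ratio is a description, was singled out after its values were seen and carries no test. C1qc per C1qa was 0.969 in CCR2-/- and 0.933 in WT in the same cells, where the tags overlapped.

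Among the classes compared between genotypes, C3, the hub of the cascade, and C4b, a C4 gene of the classical pathway, had their highest mean in adventitial fibroblast-like cells. The CCR2-/- mesothelial-like cells, described further on, lay above them for both genes but were too few in WT to compare. In adventitial fibroblast-like cells, the fibroblasts around vessels and airways (501 CCR2-/- cells, 397 WT cells), C3 ranged over CCR2-/- tags from 1931 to 4739 CPM with a median of 3998 CPM, and over WT tags from 1374 to 3726 CPM with a median of 2483 CPM. CCR2-/- tags 6, 7 and 8 lay within the WT range and the other 5 above it. The log2 change was 0.58 (SE 0.19) and did not pass (edgeR adjusted p = 0.242). C4b ranged over CCR2-/- tags from 872 to 1428 CPM with a median of 1067 CPM, and over WT tags from 476 to 925 CPM with a median of 650 CPM. Only the lowest CCR2-/- tag, tag 7, lay below the highest WT tag, tag 1. C4b was higher in CCR2-/- (log2 change 0.71, SE 0.13, edgeR adjusted p = 0.00742) and remained called with each of the 17 tags left out in turn. Of the 6 members tested in this class 2 were called higher, C4b and Serping1, against 0.19% of 10529 genes tested. Marker lists of other types are given for the same cells. The 10 alveolar fibroblast markers summed to 1361 to 2542 CPM in CCR2-/- and 630 to 1381 CPM in WT, with 8 of 9 tested above 0 and Inmt called higher. The 7 mesothelial markers summed to 27.5 to 128 CPM in CCR2-/- and 5.83 to 80.7 CPM in WT, with Wt1 at 0 in both and Upk3b at 0 in WT. The 9 alveolar type 2 markers averaged 988 CPM in CCR2-/- and 500.4 CPM in WT in sum, with 8 of 8 tested above 0. The part of these lists in the calls was not tested.

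Alveolar fibroblast-like cells, the fibroblasts of the gas-exchange walls (1353 CCR2-/- cells, 1309 WT cells), showed the same direction. C3 ranged over CCR2-/- tags from 1828 to 2392 CPM with a median of 2098 CPM, and over WT tags from 1066 to 1940 CPM with a median of 1583 CPM. C4b ranged over CCR2-/- tags from 694 to 895 CPM with a median of 793 CPM, and over WT tags from 325 to 603 CPM with a median of 469 CPM. Every CCR2-/- tag lay above every WT tag for C4b, while for C3 the lowest CCR2-/- tag, tag 7, fell below the highest WT tag, tag 1. By edgeR, C3 was higher in CCR2-/- by a log2 change of 0.54 (SE 0.12, adjusted p = 0.0248) and C4b by 0.73 (SE 0.12, adjusted p = 0.00186). With Serping1, 3 of 7 members tested were called higher, against 0.464% of 11844 genes tested. The median log2 change was 0.35 over the 7 members and 0.00 over all genes.

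These fibroblast calls depended on which cells were counted. The class joins cluster 4 with the smaller cluster 25, whose mean doublet score was 0.148 in CCR2-/- and 0.132 in WT, against 0.0395 and 0.035 in cluster 4. Cluster 4 held 1215 CCR2-/- and 1106 WT cells, and cluster 25 held 138 and 203. C3 stood at 2290 CPM in CCR2-/- and 1640 CPM in WT in cluster 4, and at 604 and 531 CPM in cluster 25. C4b stood at 876.5 and 555.7 CPM in cluster 4, and at 133.3 and 131.3 CPM in cluster 25. The part of these cell numbers in the calls was not tested. Without cluster 25 none of the 3 calls held, with a log2 change of 0.42 for C3 (adjusted p = 0.166), 0.61 for C4b (adjusted p = 0.0549) and 0.28 for Serping1 (adjusted p = 0.265). With the complement genes kept in the clustering, C4b was called (0.69, adjusted p = 0.00131) and C3 was not (0.40, adjusted p = 0.286). The call of C3 was lost without CCR2-/- tag 1 or 3 or WT tag 7 (adjusted p = 0.0522 to 0.0548), and that of C4b in none of the 17 fits with a tag left out. In the same cells the 10 adventitial fibroblast markers summed to 1316 to 2412 CPM in CCR2-/- and 875 to 1909 CPM in WT, with 8 of 9 tested above 0 and none called. The 9 activated fibroblast markers summed to 1512 to 2772 CPM in CCR2-/- and 1277 to 1928 CPM in WT, with 6 of 6 tested above 0 and Sfrp1 called higher. The 7 mesothelial markers summed to 120.0 to 205 CPM in CCR2-/- and 105 to 166 CPM in WT, with both tested markers above 0 and none called. Of these, Wt1 was at 0 in both genotypes and Upk3b in WT. The 9 alveolar type 2 markers averaged 893 CPM in CCR2-/- and 645 CPM in WT in sum, with 8 of 9 above 0. The 6 general capillary markers averaged 562 CPM in CCR2-/- and 887 CPM in WT in sum, with 0 of 6 above 0 and none called. The part of these lists in the calls was not tested.

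**Figure D3:**
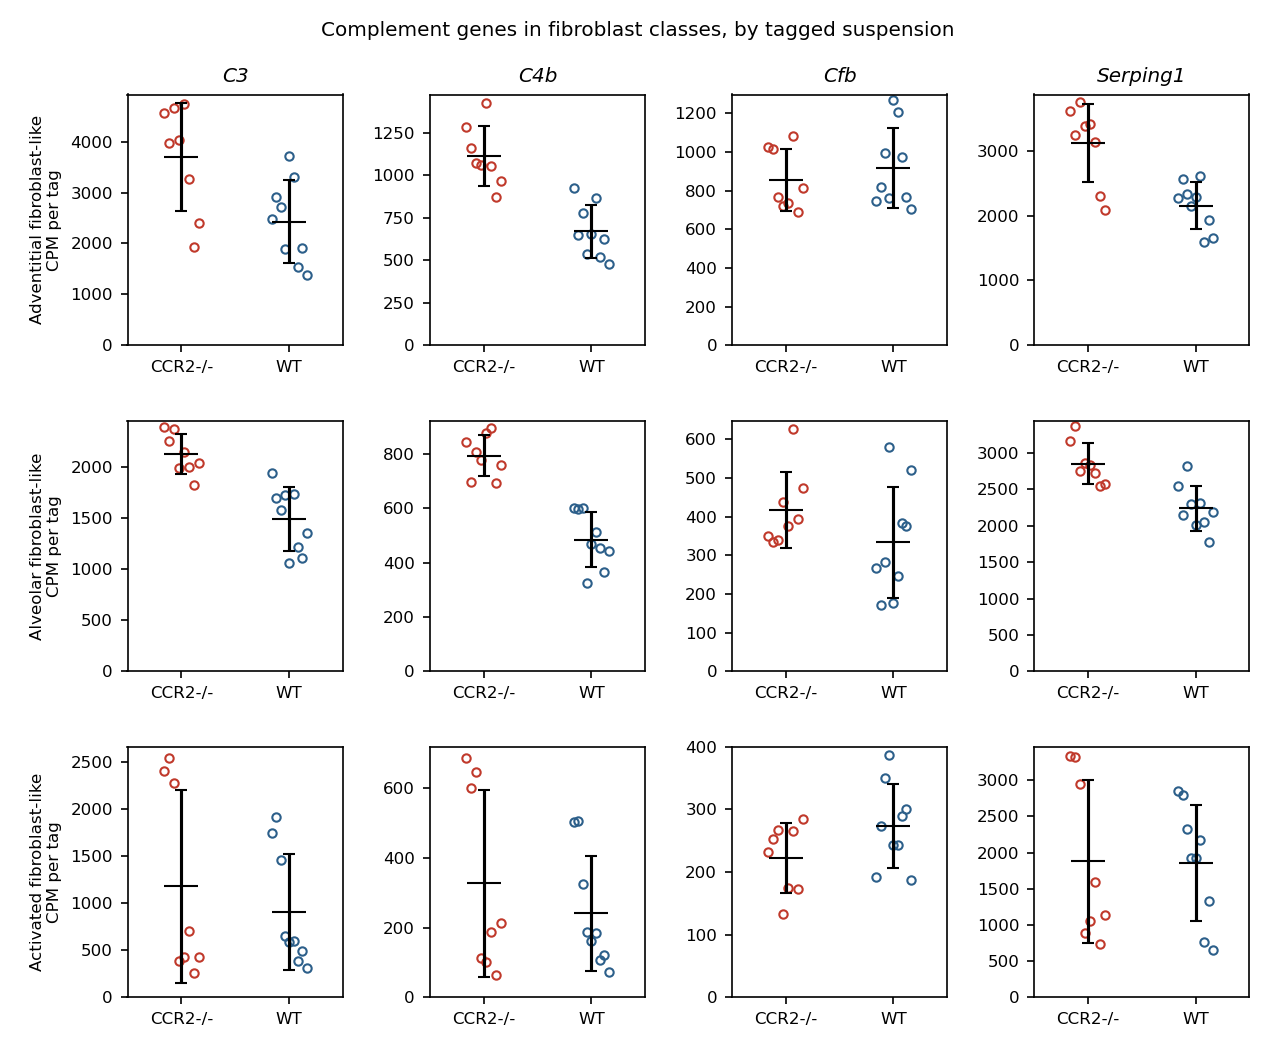
C3, C4b, Cfb and Serping1 (columns) in adventitial, alveolar and activated fibroblast-like cells (rows), in CPM by tag, with CCR2-/- left of WT; points are tags, bars mean and SD. In alveolar fibroblast-like cells the CCR2-/- tags of C4b lie between 694 and 895 CPM and the WT tags between 325 and 603 CPM, while in activated fibroblast-like cells 3 tags of each genotype stand above the rest for C3.

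C4a, the near-identical copy, followed C4b at a similar ratio over classes. Pooled over tags, C4a had between 0.209 and 0.243 reads per C4b read in each of the 7 classes compared and in both genotypes. The WT mesothelial-like value rests on 40 C4a reads from 3 cells. Single tags with enough reads ranged from 0.1565 in WT alveolar to 0.3125 in CCR2-/- interstitial macrophage-like cells. C4a was called higher in alveolar fibroblast-like cells (log2 change 0.77, SE 0.15, edgeR adjusted p = 0.00749) and in adventitial ones (0.78, SE 0.16, edgeR adjusted p = 0.0204). Reads shared between the copies were not resolved, so C4a adds no separate measurement to C4b.

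Other classes carried C3 as well. Activated fibroblast-like cells, with the matrix genes of scarring such as Cthrc1 and Tnc, averaged 1181 ± 1028 CPM of C3 in CCR2-/- and 908 ± 619 CPM in WT. By edgeR none of the 8 members tested in this class was called, against 0.327% of 12231 genes, and 1, C5ar1, had an unadjusted p under 0.05. Alveolar type 2-like cells, which make surfactant, averaged 405 ± 243 CPM of C3 in CCR2-/- and 402 ± 233 CPM in WT, with a log2 change of -0.01 (SE 0.34). None of the 7 members tested there was called by edgeR, against 0.0946% of 11632 genes, and 2 had an unadjusted p under 0.05. Cluster 6, which had neutrophil markers but was led by Il1f9, Hcar2, Ccl3 and Il1rn and so kept its number, averaged 562 ± 135 CPM in CCR2-/- and 553 ± 296 CPM in WT. Mesothelial-like cells, the outer lining of the lung, counted 87 in CCR2-/- and 3 in WT, too few for a comparison. In the 4 CCR2-/- tags with enough of them, C3 averaged 7818 ± 2102 CPM, C4b 2889 ± 691 CPM and Cfb 2388 ± 483 CPM, each above its mean in every fibroblast-like class.

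Interstitial macrophage-like cells also carried C4b, at 196 ± 79.5 CPM in CCR2-/- and 138 ± 73.2 CPM in WT. At 5000 reads C4b was read in 23.6% of these CCR2-/- cells and 15.6% of WT ones, against 1.504% and 1.17% of B cell-like cells. C4b in scar-type macrophage-like cells averaged 6.69 CPM in CCR2-/- and 8.32 CPM in WT, and in alveolar macrophage-like cells 36.8 and 52.4 CPM.

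Cfb, encoding factor B, was read both in fibroblasts and in macrophages, and mesothelial-like cells, too few in WT to compare, are left out of its order here. In adventitial fibroblast-like cells it averaged 856 ± 159 CPM in CCR2-/- and 916 ± 208 CPM in WT, with every tag above every tag of alveolar fibroblast-like cells, the class ranked next among those compared. Its log2 change in adventitial fibroblast-like cells was -0.13 (SE 0.14, edgeR adjusted p = 0.905), while C4b and Serping1 were called in the same cells. In alveolar fibroblast-like cells it averaged 416 ± 97.95 CPM in CCR2-/- and 333 ± 144 CPM in WT. In alveolar macrophage-like cells it averaged 199 ± 148 CPM in CCR2-/- and 277 ± 137 CPM in WT. In interstitial macrophage-like cells Cfb ranged from 19.5 to 119 CPM over CCR2-/- tags with a median of 54.9 CPM, and from 68.3 to 232 CPM over WT tags with a median of 162 CPM. Its log2 change there was -1.17 (SE 0.34), which did not pass (edgeR adjusted p = 0.265). Scar-type macrophage-like cells had 105 ± 57.8 CPM in CCR2-/- and 256 ± 160 CPM in WT (log2 change -1.21, SE 0.45, edgeR adjusted p = 0.401), and monocyte-like cells 60.0 and 172 CPM (log2 change -1.72, SE 0.66, edgeR adjusted p = 0.220). At 5000 reads Cfb was read in 13.1% of CCR2-/- scar-type macrophage-like cells (95% interval 8.39 to 19.2%) and 33.2% of WT ones (30.4 to 36.1%), and in 1.33% and 1.08% of B cell-like cells. These intervals pool the cells of all tags and leave out the spread between tags, so they are no comparison of genotypes.

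Serping1, encoding C1 inhibitor, ranged in adventitial fibroblast-like cells over CCR2-/- tags from 2089 to 3759 CPM with a median of 3311 CPM, and over WT tags from 1593 to 2611 CPM with a median of 2278 CPM. CCR2-/- tags 7 and 8 lay within the WT range and the other 6 above it. In alveolar fibroblast-like cells it ranged from 2551 to 3367 CPM in CCR2-/- with a median of 2793 CPM, and from 1775 to 2819 CPM in WT with a median of 2195 CPM. By edgeR it was higher in adventitial (log2 change 0.51, SE 0.12, adjusted p = 0.0438) and alveolar fibroblast-like cells (0.37, SE 0.09, adjusted p = 0.0462). Both calls lay close to the threshold. The adventitial one was kept in 4 of 17 fits with a tag left out (without CCR2-/- tag 7 or 8 or WT tag 2 or 6) and lost at equal cell numbers (adjusted p = 0.133). The alveolar one was kept in 2 of 17 (without CCR2-/- tag 7 or WT tag 3). Over those fits the adjusted p ranged from 0.00859 to 0.106 in adventitial and from 0.0148 to 0.0987 in alveolar cells. Outside fibroblasts Serping1 reached 705 ± 145 CPM in CCR2-/- smooth muscle or pericyte-like cells and 525 ± 176 CPM in WT ones. In activated fibroblast-like cells it was 1879 ± 1126 CPM in CCR2-/- and 1864 ± 800 CPM in WT.

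The receptor genes were myeloid. C3ar1, the C3a receptor, ranged in interstitial macrophage-like cells over CCR2-/- tags from 190.0 to 662 CPM with a median of 399 CPM, and over WT tags from 256 to 491 CPM with a median of 357 CPM. It averaged 227 ± 158 CPM in CCR2-/- and 247 ± 46.2 CPM in WT scar-type macrophage-like cells. The ranges of these classes overlapped in both genotypes, and in WT no monocyte-like tag reached the lowest scar-type tag. C5ar1, the C5a receptor of neutrophils and macrophages, ranked first in neutrophil-like cells, with 926 ± 385 CPM in CCR2-/- and 746 ± 276 CPM in WT. Cluster 6 followed at 509 ± 165 and 400.3 ± 152 CPM, and interstitial macrophage-like cells at 302.4 ± 79.3 and 273 ± 57.4 CPM. Tags of neighbouring classes in this order overlapped throughout the first 6 ranks. C5ar1 had a log2 change of 0.31 in neutrophil-like cells (SE 0.33, edgeR adjusted p = 0.994), where neither of the 2 members tested was called, against 0.0787% of 2540 genes, and neither had an unadjusted p under 0.05. In cluster 6 none of 4 members was called by edgeR, against 0.111% of 5423 genes, and none had an unadjusted p under 0.05. At 5000 reads C5ar1 was read in 41.2% of CCR2-/- and 44.0% of WT neutrophil-like cells, and in 0.531% and 0.999% of B cell-like cells.

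Over all cells of a tag together, 3 members were called higher in CCR2-/- and 1 lower, against 5.02% of 19198 genes called higher and 6.47% called lower. C3 averaged 719 ± 195 CPM in CCR2-/- and 413 ± 75.6 CPM in WT (log2 change 0.80, SE 0.14, edgeR adjusted p = 0.00107). C4b averaged 221 ± 32.2 CPM in CCR2-/- and 115 ± 18.5 CPM in WT, with no overlap between tags (log2 change 0.94, SE 0.10, edgeR adjusted p = 5.43e-06). Serping1 averaged 750 ± 122 CPM in CCR2-/- and 520 ± 27.7 CPM in WT (log2 change 0.52, SE 0.08, edgeR adjusted p = 0.000281). C5ar1 averaged 42.0 ± 11.3 CPM in CCR2-/- and 61.1 ± 15.2 CPM in WT and was lower (log2 change -0.55, SE 0.17, edgeR adjusted p = 0.0387), a call kept in 5 of 17 fits with a tag left out (without CCR2-/- tag 5 or 6 or WT tag 1, 2 or 3; adjusted p = 0.0138 to 0.0761 over the 17). The calls of C3, C4b and Serping1 were kept in all 17. Levels over all cells mix the level per cell with the cell make-up, which cannot be told apart here. Monocyte-like cells made up 1.25% of CCR2-/- and 7.11% of WT cells, scar-type macrophage-like cells 1.11% and 6.29%, and adventitial fibroblast-like cells 3.38% and 2.38%.

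The reads of each gene were then assigned to their classes within a tag. Macrophage-like and monocyte-like classes gave 94.4 ± 2.98% of C1qa reads in CCR2-/- and 92.6 ± 2.47% in WT, and 93.5 ± 2.57% and 93.0 ± 2.85% of C3ar1 reads. Fibroblast-like classes gave 76.7 ± 4.16% of C3 reads in CCR2-/- and 75.5 ± 6.23% in WT, 79.5 ± 3.92% and 80.9 ± 6.15% of C4b reads, and 91.5 ± 1.38% and 90.5 ± 1.65% of Serping1 reads. Alveolar type 2-like cells gave 7.41 ± 3.89% of C3 reads in CCR2-/- and 7.04 ± 4.76% in WT. Mesothelial-like cells gave 7.53 ± 4.33% of C3 reads in CCR2-/- and 0.503 ± 0.963% in WT.

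Within the macrophage compartment, interstitial macrophage-like cells gave most C1qa reads in both genotypes, 64.3 ± 13.2% in CCR2-/- and 67.2 ± 13.5% in WT. Alveolar macrophage-like cells gave 18.2 ± 14.0% of C1qa reads in CCR2-/- and 2.25 ± 2.099% in WT. For C3ar1, alveolar macrophage-like cells gave 31.3 ± 17.5% in CCR2-/- and 4.44 ± 4.92% in WT, and scar-type macrophage-like cells gave 17.2 ± 16.8% and 44.1 ± 19.8%. For Cfb the macrophage and monocyte classes together gave 14.7 ± 7.75% of reads in CCR2-/- and 37.2 ± 18.6% in WT. For C5ar1 they gave 62.2 ± 12.5% in CCR2-/- and 77.1 ± 9.09% in WT, and cluster 6 gave 21.7 ± 4.41% and 8.74 ± 5.25%. Shares are parts of a whole and follow the number of cells as well as the level per cell, and no test was run on them.

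**Figure D4:**
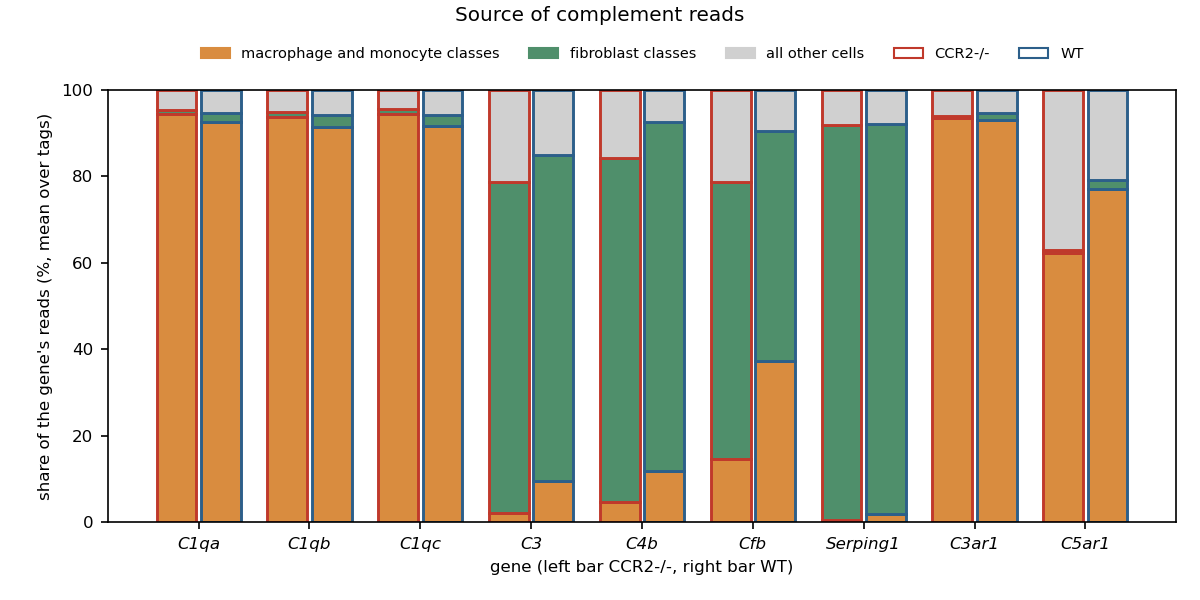
Share of all reads of each complement gene (percent, mean over tags) that falls in each group of classes, with the CCR2-/- bar (red outline) left of the WT bar (blue outline) of each gene; orange is macrophage and monocyte classes, green fibroblast classes and grey all other cells. Macrophage and monocyte classes give 94.4% of C1qa reads in CCR2-/- and 92.6% in WT, and fibroblast classes give 91.5% of Serping1 reads in CCR2-/- and 90.5% in WT.

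Whether the genotype difference was the same in macrophages and in fibroblasts was tested directly. Within each tag the log2(CPM + 1) of pooled macrophage and monocyte classes minus that of pooled fibroblast classes was taken, and the 8 CCR2-/- tags were set against the 9 WT tags (exact permutation, two-sided), with p adjusted over the 9 genes. For C3 this difference ranged from -5.00 to -4.11 in CCR2-/- tags and from -4.06 to -2.78 in WT tags, which did not overlap, and differed by -1.09 (exact p = 8.23e-05, adjusted p = 0.00074). Its macrophage part was -0.63 and its fibroblast part 0.47. Class by class, the edgeR log2 change of C3 was 0.43 in interstitial, -0.13 in alveolar and -0.31 in scar-type macrophage-like cells. It was -0.27 in monocyte-like cells, and none of these was called. For Serping1 the genotypes differed by -0.88 in the same measure (exact permutation, adjusted p = 0.0132), with parts of -0.69 and 0.20. Its edgeR log2 changes were 0.41, -0.12, -0.765 and -1.74 in the same order of classes, and none was called. C4b gave -0.15 (exact permutation, adjusted p = 0.548), its parts 0.44 and 0.59 lying on the same side, and Cfb gave -0.60 (exact permutation, adjusted p = 0.194). C1qa gave 2.00 and C1qc 2.02 (exact permutation, adjusted p = 0.0132 and 0.0254), where the macrophage parts were 0.67 and 0.83 and the fibroblast parts -1.33 and -1.19. C3ar1 gave 1.11 and C5ar1 1.54 (exact permutation, adjusted p = 0.019 and 0.00481), with macrophage parts of -0.06 and -0.13 and fibroblast parts of -1.17 and -1.67. C1q and receptor levels in fibroblast-like cells were low, with C5ar1 at 0.589 CPM in CCR2-/- and 2.00 CPM in WT alveolar fibroblast-like cells. With log2(CPM + 10) neither receptor passed (C3ar1 0.22, adjusted p = 0.358; C5ar1 0.36, adjusted p = 0.242), and C1qc did not pass without CCR2-/- tag 4 or tag 7 (adjusted p up to 0.0525). C1qb gave 1.615 (exact permutation, adjusted p = 0.0833) and passed without WT tag 3 or tag 7 (adjusted p down to 0.0304). The pooled macrophage sum held more monocyte-like and scar-type cells in WT, and the part of this make-up in the differences was not tested.

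For some genes and classes, levels also followed the tag number, in both libraries alike. In activated fibroblast-like cells C3 was 2408, 2548 and 2277 CPM in CCR2-/- tags 1 to 3 and 259 to 708 CPM in CCR2-/- tags 4 to 8, against 1748, 1915 and 1458 CPM in WT tags 1 to 3 and 318 to 659 CPM in WT tags 4 to 9. C4b and Serping1 in these cells had their highest 3 tags at the same numbers in both genotypes. Alveolar type 2-like cells did likewise for C3, with 656 to 761 CPM in CCR2-/- tags 1 to 3 and 154 to 280.0 CPM in tags 4 to 8, and with 592 to 760 CPM in WT tags 1 to 3 and 156 to 368 CPM in tags 4 to 9. Cfb in the same cells had a median of 275 CPM over CCR2-/- tags 1 to 3 and 23.1 CPM over tags 4 to 6, and medians of 234 and 14.2 CPM over the same WT tags. In alveolar macrophage-like cells Cfb had medians of 396, 109 and 71.8 CPM over CCR2-/- tags 1 to 3, 4 to 6 and 7 to 8, and of 428, 284 and 123 CPM over WT tags 1 to 3, 4 to 6 and 7 to 9. The C1q chains of CCR2-/- alveolar macrophage-like cells were highest in tags 4 to 6. Since no source used here ties a tag number to a day, these values are a description by number, with no test. The fits and permutations above treat tags of a genotype as exchangeable and take no account of this shared pattern.

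**Figure D5:**
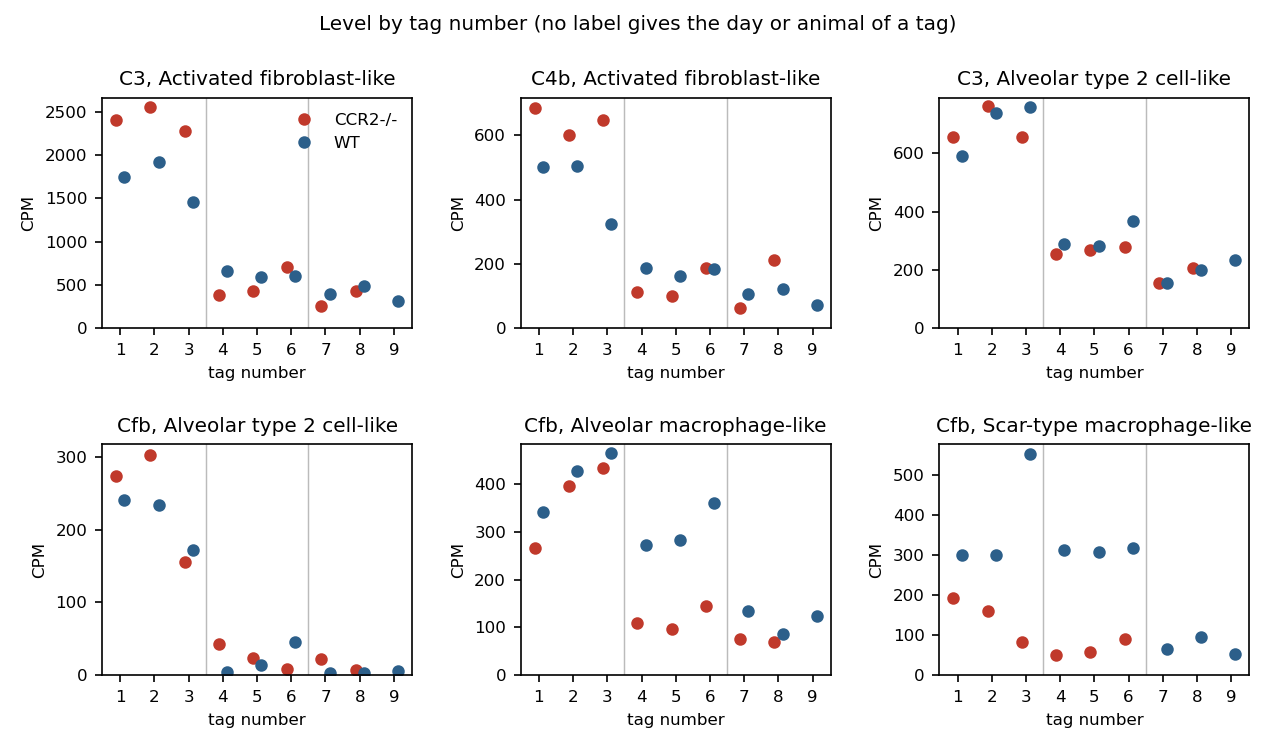
CPM by tag number in 6 panels: C3 and C4b in activated fibroblast-like cells, C3 and Cfb in alveolar type 2-like cells, and Cfb in alveolar and scar-type macrophage-like cells. Each point is a tag, red for CCR2-/- and, shifted to the right, blue for WT, and grey lines part tags 1 to 3, 4 to 6 and 7 to 9. C3 in activated fibroblast-like cells is 2277 to 2548 CPM in CCR2-/- tags 1 to 3 and 259 to 708 CPM in the later tags, and 1458 to 1915 CPM in WT tags 1 to 3 and 318 to 659 CPM in the later tags.

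The rest of the pathway was measured through 42 further complement genes, of which 38 were in the tables. The leading class of each is by the mean over both genotypes, among classes compared between them. In the classical pathway the proteases C1s1 and C1ra were highest in adventitial fibroblast-like cells, at 1366 and 1062 CPM over both genotypes. In the terminal pathway Hc, which encodes C5, stood highest in alveolar type 2-like cells at 1614 CPM and C7, part of the membrane attack complex, in alveolar fibroblast-like cells at 187 CPM. Among fluid-phase regulators Clu, encoding clusterin, led in alveolar type 1-like cells at 2384 CPM. Cfp, encoding properdin, which stabilises the alternative convertase, had its highest such mean in conventional dendritic cell-like cells at 375 CPM. Its tags there lay between 145 and 555 CPM in CCR2-/- and between 187 and 740 CPM in WT. Interstitial macrophage-like cells had 404 ± 77.6 CPM in CCR2-/- and 337 ± 58.5 CPM in WT, and the ranges of both classes overlapped within each genotype. Of lectin pathway genes Colec12, a scavenger receptor of the collectin family, led in alveolar fibroblast-like cells at 799 CPM and Fcna, encoding ficolin A, in interstitial macrophage-like cells at 204 CPM. Among membrane regulators Cd55, which dissociates convertases, led in B cell-like cells at 520 CPM, and Cr1l in aerocyte-like endothelium at 253 CPM. Among receptors Cd93 led in cluster 5, an endothelial cluster led by Edn1, Gja4 and Sox17, at 1630 CPM, and Itgam, a chain of complement receptor 3, in neutrophil-like cells at 1058 CPM.

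Between genotypes few of these passed within a class. In alveolar fibroblast-like cells C4a was among those called higher, where 0.464% of all genes were, with a median log2 change of 0.06 over the 19 listed genes tested. In adventitial fibroblast-like cells 1 of 19, C4a, was called higher, against 0.19% of all genes, with a median of 0.33. In scar-type macrophage-like cells 1 of 15, Colec12, was called higher (2.80, SE 0.59, edgeR adjusted p = 0.0442), against 0.137% of all genes, and in monocyte-like cells 1 of 14, C1s1, was called lower (-3.49, SE 0.91, edgeR adjusted p = 0.0337), against 2.57%. Both genes have their highest level in fibroblast-like classes. In activated fibroblast-like cells the leukocyte integrin chains Itgam (-3.46, SE 0.69, edgeR adjusted p = 0.0308) and Itgb2 (-2.86, SE 0.50, edgeR adjusted p = 0.0105) were lower, 2 of 21 tested against 0.278% of all genes, at 2.03 CPM in CCR2-/- and 22.2 CPM in WT for Itgam. In cluster 5 Clu was higher (0.76, SE 0.15, edgeR adjusted p = 0.0312), where 0.0289% of 10382 genes were called higher. Over all cells 9 of 33 tested were higher, against 5.02% of all genes (among them C1ra, C1s1, C2, C4a, C6, Cd55, Clu and Hc) and 3 lower, against 6.47% (Cd93, Cfp and Itgam). None of the 19 listed genes tested in interstitial macrophage-like cells and none of the 17 in alveolar macrophage-like cells was called by edgeR, with 3 and 1 at an unadjusted p under 0.05.

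For each member the 3 genes with the most similar level over the 25 classes were found by Pearson correlation of log2(CPM + 1). All 3 C1q chains had Ms4a7 (r = 0.962 to 0.976) and Mmp12 (r = 0.934 to 0.946) at the top, followed by Fcrls for C1qa and C1qc and Fcgr1 for C1qb. C3ar1 had Msr1, a scavenger receptor of macrophages (r = 0.952), F13a1 and Ccl9. C5ar1 had Igsf6 (r = 0.969), Cd300ld and Cd300lb. C3 had Rhou (r = 0.930), Steap4 and Creb3l1, and Cfb had Cd302 (r = 0.890), Igf1 and Steap3. C4b had Olfml3 (r = 0.944), Col14a1, a collagen of fibroblasts, and Plxdc2. Serping1 had Serpina3n, another serpin (r = 0.974), Fbn1, encoding fibrillin, and Rhobtb3. The classes come from the same 2 libraries, so these values describe likeness of pattern and carry no test.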

How the data were processed

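Lung cells of silica-treated CCR2-/- and WT mice were profiled on BD Rhapsody cartridges, with 20000 cells loaded per library. The authors deposited a table of counts per gene and cell for each library, with the tag in the column name. The submitters' processing notes name cutadapt 2.10, Bowtie2 2.4.2, R 3.6.3 and GRCm38. The annotation, strand use and molecule counting are not given in the sources used here. The median count above 0 was 10 and 21.67% of such counts were 1, so counts were treated as reads. Columns marked as tag doublets or without a tag (1213) were not used.

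A cell needed 200 detected genes or more and no more than 25% mitochondrial reads, and Scrublet (expected rate 0.06) removed 336 CCR2-/- and 370 WT cells. Clustering used 2000 variable genes without complement genes and Ccr2, 40 components, 20 neighbours and Leiden resolution 1.5 (scanpy 1.11.5, Python 3.11.15), and a cluster was named from at least 3 of its markers (261 markers in 32 lists). Reads were summed per tag and class (at least 10 cells per tag and 3 tags per genotype) and tested with edgeR 4.0.16 (R 4.3.3), quasi-likelihood, TMM scaling, filterByExpr and Benjamini-Hochberg adjustment over all genes of a class, called under 0.05. Printed levels are CPM without TMM scaling. Detection was counted in cells thinned to 5000 reads. The alternatives were DESeq2 1.42.0, no filter on low counts, a stricter cell filter (500 genes, 15% mitochondrial), Leiden resolution 0.8, complement genes kept in clustering, equal cell numbers, equal cell weights, a pseudocount of 10 in place of 1, thinning to 10000 reads, the tag number as a block, and each tag left out. Without cluster 25 and without sub-cluster 6 were chosen after seeing the data. The script was tested on simulated data. With known changes put in, edgeR called 8% of genes raised 2-fold and 58% of those raised 4-fold in interstitial macrophage-like cells. In alveolar fibroblast-like cells the shares were 38% and 80%. Of genes lowered to 0.25-fold it called 31.7% and 47.8% in the same order. The changed genes were drawn at random from all genes tested in the class, so these shares do not describe any given member. A gene that was not called may still differ. All 9 members are named. Other pathway genes are named where called or among the 2 highest of their role, except for an item not reported here, and the 3 most alike genes per member by correlation. Members, lists and tests were chosen with earlier results of these data known.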

Additional observations from a re-analysis of the deposited data

Results flagged for a closer look

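Of 86 groups of tags tested for a single tag far from the others, 3 stood out, and chance gives about 1 in 20. C4b in WT interstitial macrophage-like cells was 318.0 CPM in tag 9. In CCR2-/- scar-type macrophage-like cells tag 5, with 12 cells, had 980.8 CPM of C1qb and 1781 CPM of C1qc.

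For 6 genes the CCR2-/- minus WT difference was not the same in pooled macrophages and pooled fibroblasts, by the exact permutation test. The pooled macrophages were not the same mixture in both genotypes. Monocyte-like and scar-type macrophage-like cells made up 7.11% and 6.29% of WT cells, and 1.25% and 1.11% of CCR2-/- cells. The part of this make-up in the differences was not tested. The CCR2-/- minus WT gap in the macrophage minus fibroblast difference, on the log2(CPM + 1) scale, was 2.003 for C1qa, 2.017 for C1qc, -1.094 for C3, -0.882 for Serping1, 1.11 for C3ar1 and 1.544 for C5ar1, with 8 CCR2-/- and 9 WT tags. With log2(CPM + 10) C3ar1 and C5ar1 did not pass (adjusted p = 0.358 and 0.242), and with log2(CPM + 1) their CCR2-/- minus WT differences were -0.056 and -0.127 in macrophages and -1.166 and -1.67 in fibroblasts. C1qc did not pass without CCR2-/- tag 4 (adjusted p = 0.0505) or tag 7 (adjusted p = 0.0525). For C3 and Serping1 no single macrophage-like or monocyte-like class had a call by edgeR. Among those classes their log2 changes were positive in interstitial macrophage-like cells only. These positive signs turned without CCR2-/- tag 2, to -0.425 for C3 and -0.864 for Serping1.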

How the results depend on the processing

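CCR2-/- had 168 scar-type macrophage-like and 187 monocyte-like cells, which limits the depth of those sums. C4b in both fibroblast-like classes, and C3, C4b and Serping1 over all cells, were called with each tag left out.

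Numbers of members called moved as follows. Alveolar macrophage-like cells had 0 with complement genes kept in clustering and 0 without sub-cluster 6. Scar-type macrophage-like cells had 1 by DESeq2 and 1 with the tag number as a block, and monocyte-like cells 1 with the block. Adventitial fibroblast-like cells had 1 at equal cell numbers and 1 under the strict filter. Alveolar fibroblast-like cells had 1 with complement genes kept and 0 without cluster 25. Activated fibroblast-like cells had 1 by DESeq2, and neutrophil-like cells 2 with no filter on low counts. With tags left out in turn, the calls ranged from 1 to 2 in adventitial fibroblast-like, 1 to 3 in alveolar fibroblast-like and 0 to 2 in alveolar macrophage-like cells.

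With complement genes kept, macrophage classes gave 95.34% of WT C1qa and 95% of WT C1qc reads, and under the strict filter 76.05% of CCR2-/- C5ar1 reads. With each cell weighted equally, C4b in adventitial fibroblast-like cells was 1393 CPM in CCR2-/- and 902.5 CPM in WT. At 10000 reads C1qc was read in 20.15% of CCR2-/- and C1qb in 8.272% of WT alveolar macrophage-like cells. With log2(CPM + 10) the CCR2-/- minus WT gap in the macrophage minus fibroblast difference was 0.222 for C3ar1 and 0.360 for C5ar1. Over tags left out the gap on the log2(CPM + 1) scale was 1.312 to 1.968 for C1qb and 1.735 to 2.42 for C1qc.

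None of the log2 changes that turned sign was called in the analysis reported, and the cause was not tested. No source used here says whether a tag number marks a shared day or animal. Same-numbered tags correlated at 0.0067 to 0.164 over 8 numbers, 4 of them over 0.1, and 3 of 8 correlated best with their own number. The best WT match was tag 3 for CCR2-/- tag 2, tag 2 for tag 3, and tag 4 for tags 5 and 6. When tags were parted as 1 to 3, 4 to 6 and 7 to 9, only CCR2-/- tag 4 matched outside its part, with WT tag 9. These matches carry no test. With the tag number as a replicate block the turned values were -0.123 (C3) and -0.743 (Serping1) in interstitial macrophage-like, 0.016 (C5ar1) in scar-type macrophage-like, -4.674 (C1qa), -3.008 (C1qc) and -0.830 (C3ar1) in monocyte-like, -0.065 (C3) in activated fibroblast-like, -0.993 (C1qc) in smooth muscle or pericyte-like cells, 0.214 (C3) in cluster 6 and -0.064 (C1qc) over all cells. DESeq2 gave -0.715 (interstitial Serping1), 0.001 (scar-type C3ar1), -1.229 and -1.942 (monocyte-like C1qa and C1qc). Leiden resolution 0.8 gave -2.632, -1.771 and -0.540 (monocyte-like C1qa, C1qc and C3ar1), 0.370 (alveolar type 2 C4b) and 0.025 (neutrophil C3). Complement genes kept gave 0.116 (scar-type Serping1), -2.043 and -0.926 (monocyte-like C1qa and C1qc), -0.004 (alveolar fibroblast Cfb), 0.064 (activated Serping1) and 0.853 (alveolar type 2 C1qc). Equal cell numbers gave -0.062 (interstitial C3ar1), -0.462 (monocyte-like C1qc), 0.005 (activated Serping1), 0.035 and 0.302 (alveolar type 2 C3 and C4b) and 0.035 (cluster 6 C3). No filter gave -0.081 and -0.212 (monocyte-like C1qc and C3ar1), 0.007 (activated Serping1), 0.035 and 0.024 (alveolar type 2 C3 and C4b). The strict filter gave 0.010 (alveolar type 2 C3), 0.018 and -0.167 (cluster 6 C3 and C5ar1). Without cluster 25 C1qc in alveolar fibroblast-like cells was 0.356.

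With tags left out, log2 changes that turned sign ranged from -0.208 to 0.037 (C1qa) and -0.026 to 0.196 (C1qc) over all cells; -0.196 to 0.093 (Serping1) in activated and -2.637 to 0.538 (C1qc) in alveolar fibroblast-like cells; -0.324 to 0.043 (C3) and -0.230 to 0.042 (Serping1) in alveolar, and -0.425 to 0.610 (C3), -0.086 to 0.178 (C3ar1) and -0.864 to 0.578 (Serping1) in interstitial macrophage-like cells. They ranged from -0.193 to 0.153 (C3), -0.805 to 0.356 (C4b) and -0.086 to 0.791 (Cfb) in alveolar type 2-like cells, -0.163 to 0.166 (C3) in cluster 6, -1.636 to 0.980 (C1qa), -2.434 to 0.328 (C1qc) and -0.325 to 0.200 (C3ar1) in monocyte-like, -0.377 to 0.086 (C3ar1) and -0.723 to 0.313 (C4b) in scar-type macrophage-like, and -0.221 to 1.025 (C1qc) in smooth muscle or pericyte-like cells.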
